A study of Mus musculus with 3 samples.

Results

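The nuclear genes of the respiratory chain encode most of the protein subunits of the 4 electron transfer complexes of the inner mitochondrial membrane and of ATP synthase, here called complex V. Members were the protein-coding genes whose symbol begins with Nduf followed by the letter a, b, c, s or v and a digit, with Uqcr, with Cox followed by a digit from 4 to 8 and a letter, or with Atp5, together with Sdha, Sdhb, Sdhc, Sdhd and Cyc1. The rule used names and no measured value, and it gave 86 of 35562 genes (37 of complex I, 4 of complex II, 9 of complex III, 18 of complex IV and 18 of complex V). These 86 genes carry 85 symbols, since the annotation holds a pair of genes named Atp5o.

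RNA was sequenced from myoblast lines 66, 67 and 72, which carry the genotype Dmdmdx; Pax7-nGFP and form 1 group of 3 libraries. Dmdmdx is the dystrophin mutation of the mdx mouse, a model of Duchenne muscular dystrophy, and all 3 lines had their dystrophin gene edited with CRISPR/Cas9 in iPSCs so that the mutated exon is skipped and the reading frame restored. Pax7-nGFP is a nuclear GFP reporter driven by Pax7, the factor that defines satellite cells, the muscle stem cells from which the lines were grown after the iPSCs had contributed to mouse-mouse chimeras. The labels give neither age, nor the tamoxifen treatment of each chimera, nor whether each line came from an animal of its own, so that the spread between lines may be partly technical. Other cells of the study were not analysed here, and no test between conditions was possible.

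Complex I takes electrons from NADH and complex II from succinate, complex III passes them to cytochrome c, complex IV hands them to oxygen, and complex V uses the proton gradient that results to make ATP. Complexes I, III, IV and V are mosaics of nuclear subunits and of a few subunits made inside the mitochondrion. Several nuclear subunits come in tissue isoforms, of which Cox6a2, Cox7a1 and Cox8b are known from heart and skeletal muscle and Cox6a1, Cox7a2 and Cox8a from most other tissues. The c subunit, which forms the rotating ring of ATP synthase, is made from 3 genes, Atp5g1, Atp5g2 and Atp5g3, that encode the same mature peptide behind different leader sequences.

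Coding sequence of such paralogs is shown because it decides whether their reads can be told apart. The last 150 coding bases of the c subunit genes are given 5′ to 3′, from GENCODE M21 transcripts, with capitals at the 39 positions where the 3 genes do not all hold the same base.
Atp5g1: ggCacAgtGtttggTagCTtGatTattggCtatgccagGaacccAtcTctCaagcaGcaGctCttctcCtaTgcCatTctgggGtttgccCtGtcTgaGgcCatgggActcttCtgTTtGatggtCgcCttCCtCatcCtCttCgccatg
Atp5g2: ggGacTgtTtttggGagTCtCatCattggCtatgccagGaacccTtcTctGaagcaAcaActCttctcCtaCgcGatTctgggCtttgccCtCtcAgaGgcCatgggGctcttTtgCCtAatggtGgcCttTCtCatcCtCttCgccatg
Atp5g3: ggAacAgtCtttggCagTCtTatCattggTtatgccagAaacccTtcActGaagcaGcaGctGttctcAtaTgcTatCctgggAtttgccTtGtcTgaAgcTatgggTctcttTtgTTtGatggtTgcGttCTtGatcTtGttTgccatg
Over whole coding sequences, Atp5g1 and Atp5g2 were identical at 78.0% of 404 aligned bases, Atp5g1 and Atp5g3 at 73.6% of 402, and Atp5g2 and Atp5g3 at 72.5% of 418. The longest unbroken identical run was 20 bases.

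The muscle and ubiquitous isoforms of complex IV were further apart. Their most alike gap-free stretches of 90 aligned bases are shown in the same way, with capitals where the genes of a pair differ, at 19 positions between Cox6a2 and Cox6a1 and at 25 between Cox7a1 and Cox7a2.
Cox6a2: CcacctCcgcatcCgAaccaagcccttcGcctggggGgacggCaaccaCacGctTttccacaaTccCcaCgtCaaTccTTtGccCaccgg
Cox6a1: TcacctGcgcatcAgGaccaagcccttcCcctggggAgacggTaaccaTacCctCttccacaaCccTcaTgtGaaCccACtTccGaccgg
Cox7a1: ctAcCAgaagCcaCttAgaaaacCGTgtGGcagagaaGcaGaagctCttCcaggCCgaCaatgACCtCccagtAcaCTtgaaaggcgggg
Cox7a2: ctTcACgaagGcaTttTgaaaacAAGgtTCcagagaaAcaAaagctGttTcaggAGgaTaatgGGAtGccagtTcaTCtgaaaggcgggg
Identity over the aligned coding sequence was 69.0% for Cox6a2 and Cox6a1, 67.1% for Cox7a1 and Cox7a2 and 59.0% for Cox8b and Cox8a, with no identical run longer than 12 bases.

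Nuclear subunit genes were among the more abundant transcripts of these cells. TPM is the scaled share of a library taken by a transcript after division by its length, and a member's TPM is the sum over its transcripts. Together the 86 genes held 2.59%, 2.76% and 2.82% of the TPM of lines 66, 67 and 72. Of them, 78 had a mean of at least 10 TPM, and 72 (83.7%) had a mean of at least 100 TPM, against 9.01% of all detected protein-coding genes. The 8 genes below 10 TPM were Cox4i2, Cox6a2, Cox7a1, Cox7b2, Cox8b, Cox8c, Ndufa4l2 and the other Atp5o identifier. That identifier, Cox7b2 and Cox8c were at 0 counts throughout, and Ndufa4l2 had 3, 2 and 2 counts, at or under the limit of 3 counts that a count of 0 allows. The files rest on 73274315, 66972426 and 70272367 estimated counts, and such limits cover counting error only. All 11 myoblast markers, among them Pax7, Myf5 and Myod1, had a mean of at least 10 TPM, as did 0 of 6 endothelial, 0 of 7 immune, 0 of 6 adipocyte, 1 of 9 fibroblast (Col1a2) and 2 of 6 cardiomyocyte markers (Tnnt2 and Gata4).

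**Figure D1:**
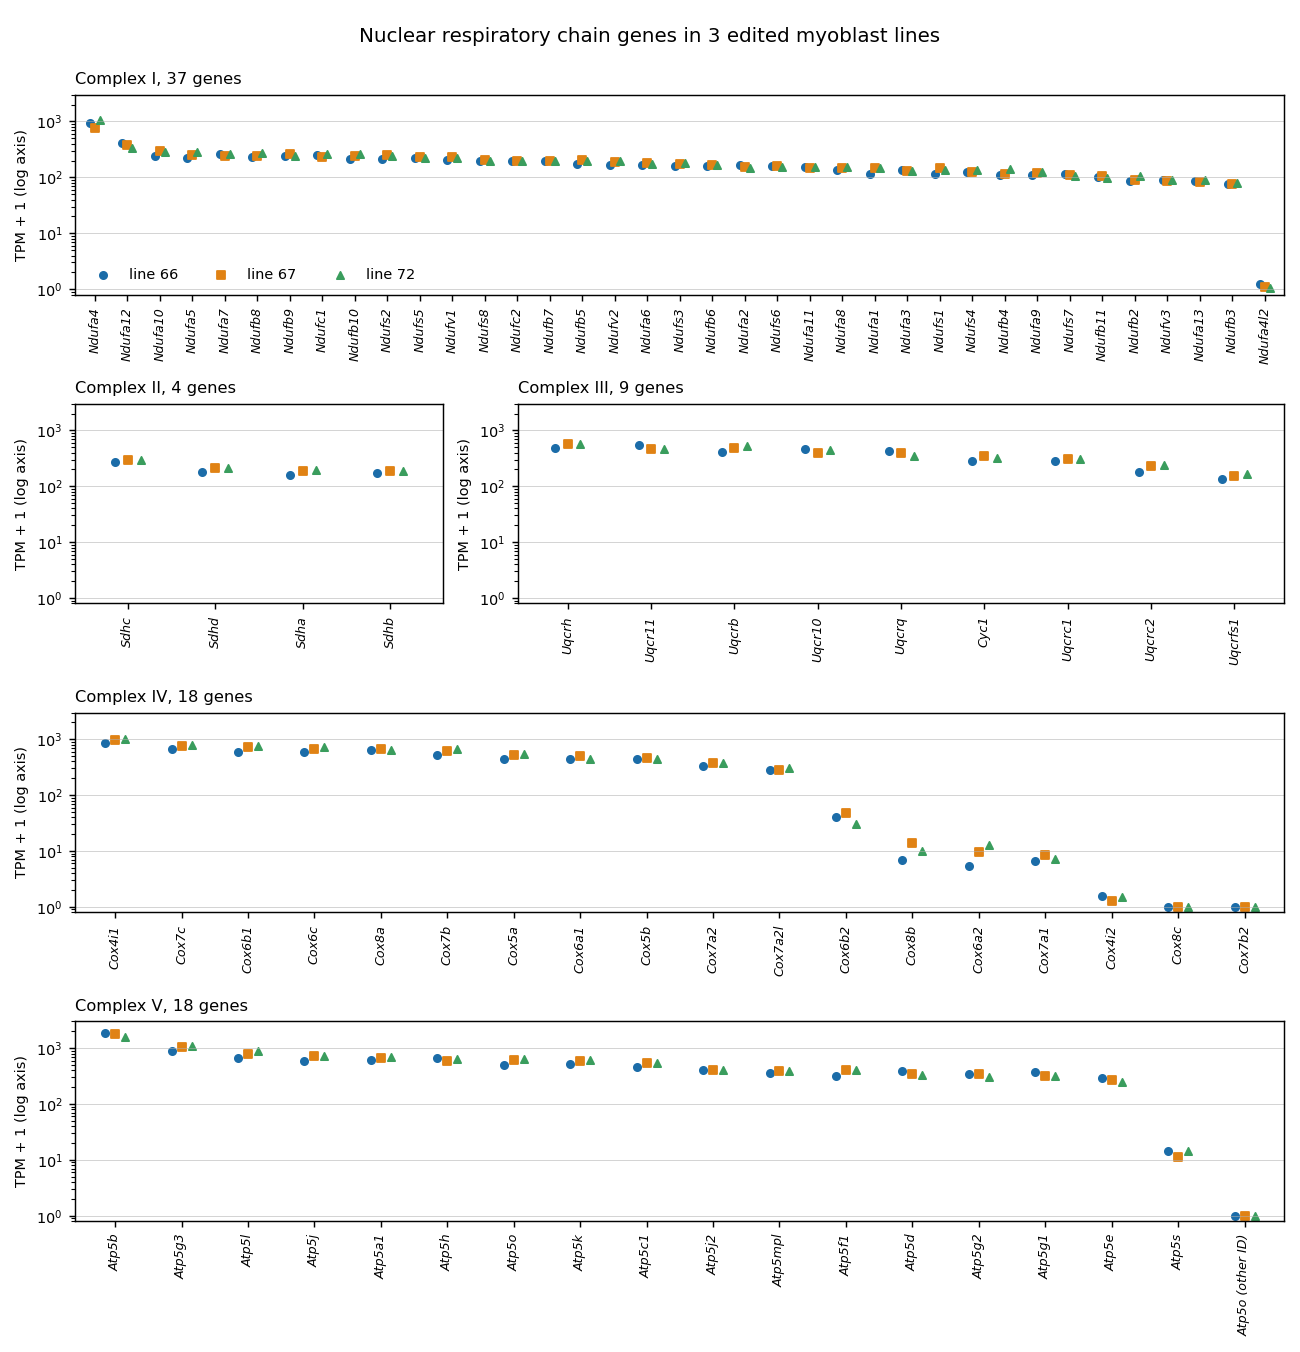
TPM + 1 on a log axis for each of the 86 genes, by complex and ordered by mean, with 1 symbol for each of lines 66, 67 and 72. Most members lie above 100 TPM in all 3 lines, and those near the bottom are tissue paralogs of complex IV, Ndufa4l2, Atp5s and the other Atp5o identifier.

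The complexes differed in the level of a typical subunit. On the log2(TPM + 1) scale, the median over members was 7.42 ± 0.03 for complex I, 7.59 ± 0.12 for complex II, 8.58 ± 0.12 for complex III, 8.65 ± 0.06 for complex IV and 8.83 ± 0.08 for complex V (mean ± SD, n = 3 lines). The values of complexes III (8.46 to 8.70) and IV (8.59 to 8.71) overlapped between lines. Those of complexes I (7.39 to 7.44) and II (7.45 to 7.67) did not, although they came within 0.1 of each other in line 66. Complex I was the lowest and complex V the highest under every alternative tried, but the order between them was not kept. With CPM, complex II (7.05) passed complexes III (6.87) and IV (6.89) and came within 0.1 of complex V (7.14). A minimum mean of 10 TPM was not among these alternatives. Among members that reach it, complex IV was above complex V (median of the mean TPM 553 against 513). Summed TPM told of the number of genes as well, with 9595 ± 328 for complex V, 7120 ± 274 for complex I, 6399 ± 489 for complex IV, 3307 ± 84.1 for complex III and 849 ± 60.5 for complex II (SD, n = 3 each).

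In complex I, the gene that stood out was Ndufa4 (chr6:11900292-11907497 on GRCm38, minus strand), with 927, 756 and 1060 TPM in lines 66, 67 and 72. Ndufa4 was named as a complex I subunit but is known to belong to complex IV, and its level lay within the range of complex IV genes. Counting it in complex IV moved the median of complex I to 7.39 and that of complex IV to 8.81, an alternative added after the data were seen. Ndufa12, an accessory subunit, followed with 405, 372 and 338 TPM. The lowest besides Ndufa4l2 were Ndufb3 with 75.2, 74.2 and 77.6 TPM and Ndufa13, which is also known as Grim19, with 84.8, 83.2 and 89.9 TPM. Without Ndufa4 and Ndufa4l2, the highest and lowest mean of complex I were 4.91-fold apart. The 7 core subunits, which carry the flavin and the iron-sulfur clusters, had a median level of 7.39, 7.58 and 7.60, and the 28 supernumerary subunits one of 7.35, 7.34 and 7.31, so that the core was higher in each line but by only 0.04 in line 66. The core was also higher with protein-coding transcripts alone (7.52 against 7.19). With CPM it was at 6.41 against 5.47, but CPM is not divided by length. The median length of the leading transcript was 1046 bases in the core and 606.5 in the supernumerary subunits, so the CPM values do not bear on the difference in TPM.

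Complex II, which is also an enzyme of the citric acid cycle and has no mitochondrially made subunit, was the most even. Its membrane anchor Sdhc had 274, 293 and 296 TPM and its other anchor Sdhd 178, 215 and 208 TPM. The flavoprotein Sdha had 157, 190 and 195 TPM and the iron-sulfur subunit Sdhb 171, 187 and 184 TPM. The means of these 4 genes lay within 1.59-fold of each other, and each was lowest in line 66.

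In complex III, small accessory subunits exceeded the larger ones in TPM, though not in CPM. Uqcrh, the hinge protein, had 490, 578 and 562 TPM, and Uqcr11 had 536, 467 and 457 TPM. The lowest were Uqcrfs1, the Rieske iron-sulfur protein that passes electrons on, with 134, 150 and 162 TPM, and the core protein Uqcrc2 with 181, 227 and 240 TPM. The median level of the 5 small subunits was 8.86 ± 0.02, against 7.99 ± 0.15 for the core proteins Uqcrc1 and Uqcrc2 and 7.77 ± 0.13 for the redox subunits Cyc1 and Uqcrfs1 (SD, n = 3). With protein-coding transcripts alone these levels were 8.84, 7.69 and 6.62. With CPM, which is not divided by length, they were 6.60, 7.62 and 7.10, so that the small subunits were the lowest.

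The 10 ubiquitous subunits of complex IV had means between 362 and 937 TPM. Their median level was 9.26 ± 0.14 (SD, n = 3), and it was 8.85 with protein-coding transcripts alone and 7.13 with CPM. Cox4i1, which regulates the complex and is its largest nuclear subunit, had 844, 960 and 1006 TPM, and Cox7c had 670, 769 and 784 TPM. Both were lowest in line 66.

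In complex V, Atp5b (chr10:128083273-128090391), the catalytic beta subunit, was the highest member of all with 1855, 1791 and 1611 TPM. Atp5g3 followed with 894, 1034 and 1081 TPM. The beta subunit exceeded its structural partner, the alpha subunit Atp5a1 (600, 673 and 690 TPM), by 3.09-, 2.66- and 2.33-fold. Atp5s, a coupling factor rather than a structural subunit, was the lowest gene with counts, at 13.6, 10.5 and 13.4 TPM, and the next lowest was Atp5e, the epsilon subunit of the F1 head, at 289, 266 and 243 TPM. The median level was 9.001 ± 0.14 for the 5 subunits of the F1 head, 9.21 ± 0.11 for the 4 of the peripheral stalk and 8.91 ± 0.07 for 4 other membrane subunits (SD, n = 3). With CPM these levels were 8.05, 7.41 and 6.42, and the F1 head was the highest. With protein-coding transcripts alone they were 9.001, 7.89 and 8.87, and the peripheral stalk was the lowest, below the c ring genes at 8.41.

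The 3 c subunit genes summed to 1608, 1685 and 1705 TPM. Atp5g3 gave 55.6%, 61.4% and 63.4% of this sum, Atp5g1 gave 22.7%, 18.6% and 18.5%, and Atp5g2 gave 21.7%, 20.04% and 18.1%. Atp5g3 was thus the main source in every line, and Atp5g1 and Atp5g2 were nearly equal (19.9% ± 2.42 and 19.9% ± 1.78, SD, n = 3). On the log2((TPM + 1)/(TPM + 1)) scale, Atp5g1 was below Atp5g3 by -1.59 ± 0.27 and Atp5g2 by -1.59 ± 0.22. For these and the other 9 pairs, an exact two-sided sign-flip test over 3 lines gave p = 0.25, and p = 0.25 after Benjamini-Hochberg adjustment over the 11 pairs, which is the smallest p that 3 lines allow.

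The myoblast lines expressed the ubiquitous isoforms of complex IV almost alone. The heart and muscle isoform Cox6a2 (chr7:128205435-128206387) had 4.29, 8.66 and 11.8 TPM from 129, 241 and 340 counts, and its counterpart Cox6a1 (chr5:115345642-115348981) had 438, 499 and 443 TPM. Cox6a2 thus made up 0.971%, 1.71% and 2.59% of the pair and differed from Cox6a1 by -5.73 ± 0.63 (log2, SD, n = 3). It was lowest in line 66 and highest in line 72, whereas Cox6a1 was highest in line 67. Cox7a1 (chr7:30184144-30186078) had 5.66, 7.64 and 6.23 TPM from 65, 83 and 69 counts, against 336, 375 and 374 TPM for Cox7a2 (chr9:79755361-79759878), a difference of -5.60 ± 0.14. Cox8b (chr7:140898945-140900446) had 6.01, 13.0 and 9.08 TPM from 62, 123 and 88 counts, against 635, 667 and 641 TPM for Cox8a, a difference of -6.02 ± 0.46. Each of the 3 muscle isoforms was above 3 counts in every line and lowest in line 66. Of all genes with at least 10 TPM, 47.7% were lowest there, and no share was computed for genes at the lower level of these isoforms.

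**Figure D2:**
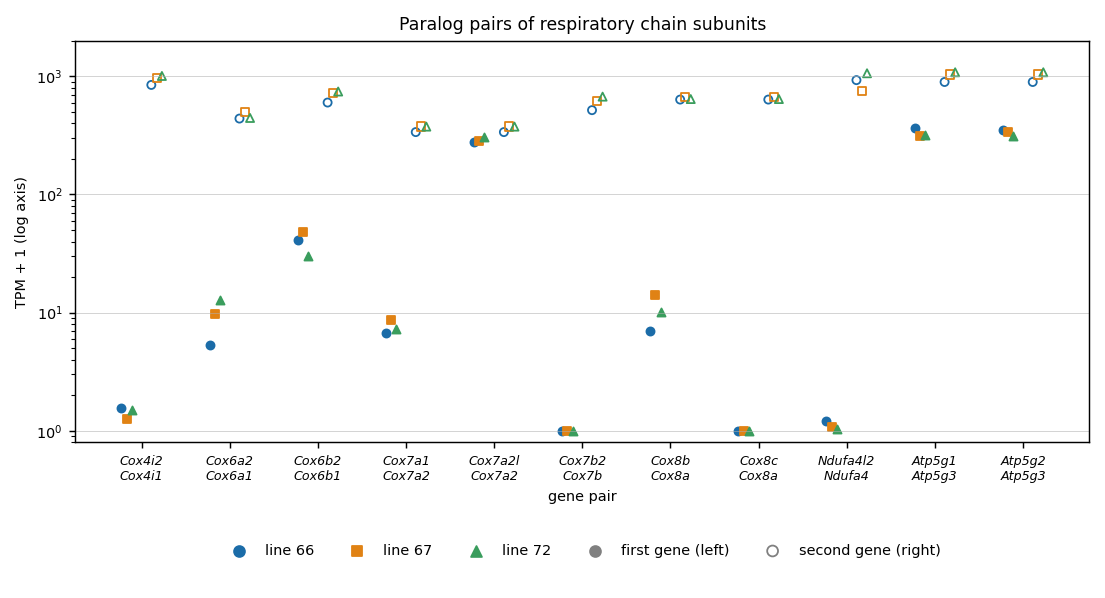
TPM + 1 on a log axis for 11 paralog pairs, with filled symbols for the gene written on top, open symbols for the gene below it and 1 shape for each line. The muscle isoforms Cox6a2, Cox7a1 and Cox8b lie near 10 TPM, and their ubiquitous counterparts between 336 and 667 TPM.

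Isoforms known from other tissues or states were lower still, with one exception. Cox4i2, an isoform of lung and of low oxygen, had 0.555, 0.267 and 0.509 TPM and at most 18 counts, a difference of -9.35 ± 0.24 from Cox4i1. Ndufa4l2, which is induced by low oxygen, was at or under the limit of detection. Cox7b2 and Cox8c, both known from testis, had a count of 0, which allows at most 0.0356% of the counts of Cox7b and 0.0203% of those of Cox8a in any line. The exception was Cox6b2 (chr7:4751792-4753094), also described in testis, with 40.3, 47.4 and 29.2 TPM against 599, 723 and 743 TPM for Cox6b1, or 6.31%, 6.16% and 3.78% of the pair. Of its TPM, 68.2% came from transcripts annotated as coding.

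Cox7a2l, a relative of Cox7a2 that helps to join complexes III and IV into supercomplexes, was close to it, with 277, 285 and 305 TPM against 336, 375 and 374 TPM. The difference of -0.32 ± 0.06 had the same sign in all 3 lines but turned to 0.60 ± 0.09 with CPM, which is not divided by length, and to 0.083 ± 0.12 with protein-coding transcripts alone.

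Promoter sequence is shown for a high and a low member of 2 isoform pairs, since CpG-rich start regions are typical of housekeeping genes. The 250 bases before the RefSeq start are given 5′ to 3′ on the strand of the gene (GRCm38.p6), with each CG in capitals. The windows are chr9:79759854-79760103 (minus) for Cox7a2, chr7:30183921-30184170 (plus) for Cox7a1, chr19:7217617-7217866 (minus) for Cox8a and chr7:140900447-140900696 (minus) for Cox8b.
Cox7a2: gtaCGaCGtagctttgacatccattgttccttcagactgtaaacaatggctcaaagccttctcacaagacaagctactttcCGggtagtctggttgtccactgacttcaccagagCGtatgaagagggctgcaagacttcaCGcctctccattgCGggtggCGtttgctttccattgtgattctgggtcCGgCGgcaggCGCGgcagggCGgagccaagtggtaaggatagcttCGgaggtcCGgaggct
Cox7a1: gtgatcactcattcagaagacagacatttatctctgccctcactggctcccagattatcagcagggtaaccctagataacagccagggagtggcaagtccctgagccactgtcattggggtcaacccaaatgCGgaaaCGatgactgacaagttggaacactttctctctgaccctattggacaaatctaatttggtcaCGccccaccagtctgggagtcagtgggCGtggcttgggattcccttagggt
Cox8a: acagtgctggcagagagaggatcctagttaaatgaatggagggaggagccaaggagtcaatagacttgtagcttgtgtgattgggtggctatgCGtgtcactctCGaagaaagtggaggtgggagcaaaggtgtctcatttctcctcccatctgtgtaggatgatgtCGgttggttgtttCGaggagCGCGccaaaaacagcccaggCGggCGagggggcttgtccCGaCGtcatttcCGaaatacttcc
Cox8b: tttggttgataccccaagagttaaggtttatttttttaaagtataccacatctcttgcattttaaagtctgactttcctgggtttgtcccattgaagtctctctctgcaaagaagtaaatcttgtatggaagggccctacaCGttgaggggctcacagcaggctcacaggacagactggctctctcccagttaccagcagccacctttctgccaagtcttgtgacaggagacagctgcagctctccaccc
Cox7a2 held 14 CG and Cox8a 11, while Cox7a1 held 4 and Cox8b 1. Windows were found for 65 of the 78 members with at least 10 TPM, whose median was 14 CG, and for 2 of the 8 lower ones, Cox7a1 and Cox8b. The median was 18 CG for all 6774 genes with at least 10 TPM and a window, and 7 CG for 7519 genes with lower means. At most 4 CG were present in 1 of the 65 members, in 5.95% of the genes with at least 10 TPM and in 38.9% of the lower genes.

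Core motifs of factors tied to respiratory genes were then counted on both strands of these windows. The NRF1 core GCGCATGC was present in 8 of 65 members (12.3%) and in 5.37% of all genes with at least 10 TPM. The estrogen-related receptor site AAGGTCA was present in 5 members (7.69%) and in 2.21% of those genes. The ETS core CCGGAAG, read by GABPA, was present in 12 members (18.5%) against 17.3%, and the YY1 core AAGATGG in 1 member (1.54%) against 4.58%. The E-box CAGCTG, a myogenic factor motif, was present in 5 members (7.69%) against 10.8%, and in Cox8b. These are letter matches in a fixed window and do not show binding.

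Nuclear subunits varied little between lines. The median ratio of the highest to the lowest line was 1.16-fold for the 78 members with at least 10 TPM and 1.18-fold for all 8428 such genes. Only 1 of 78 members (1.28%), Cox6b2, was more than 1.5-fold apart, at 1.63-fold, against 9.79% of all genes, and 0 members were beyond it without line 67 or without line 72, where 5.7% and 5.65% of all genes were. Without line 66 it was again Cox6b2 alone, against 3.61% of all genes. Beyond 2-fold there were 0 members and 2.47% of all genes. The number of members stayed at 1 with CPM, edgeR TMM and DESeq2 size factors, with 8.61%, 8.82% and 8.83% of all genes. In contrast, 64 of 78 members (82.1%) were less than 1.25-fold apart, against 66.3% of all genes. With genes down to a mean of 1 TPM, Cox6a2 (2.75-fold) and Cox8b (2.17-fold) were added to Cox6b2, which made 3 of 81 members (3.70%) against 19.7% of all 12528 genes. Next to Cox6b2, the members furthest apart were Ndufa4 (1.40-fold) and Uqcrc2 (1.32-fold), and the steadiest was Ndufb7, an accessory subunit of complex I (193, 196 and 195 TPM, 1.01-fold), which was chosen after its values were seen.

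The biological coefficient of variation (BCV), the spread between lines beyond counting error, was fitted by edgeR without sharing information between genes. Its median was 0.0664 for 81 members, 0.0902 for all 15654 genes tested and 0.0743 for 8666 genes in the members' range of counts. Its estimate common to a whole group was 0.0840 for the members and 0.156 for these genes. Without line 66 the median fell to 0.0379 for the members and 0.0504 for all tested genes, and without line 72 it was 0.0752 and 0.0741, so that members were no longer the lower. The highest values among members were those of Cox6a2 (0.468), Cox8b (0.362) and Cox6b2 (0.267).

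Genes on chromosomes 10 and 11 were higher in line 66 and those on chromosome 6 higher in line 72 across the whole transcriptome, and members there moved with their neighbours. For each gene, log2(TPM + 1) in a line was set against its average over the remaining lines, and the median of this difference over all genes with at least 10 TPM was subtracted. All 9 members on chromosomes 10 and 11 were highest in line 66, as were 82% of all genes there, with a median of 0.24 against 0.31 for all genes of these chromosomes. All 4 members on chromosome 6 were highest in line 72, as were 78.4% of all genes there, with a median of 0.21 against 0.15. The members farthest from the shift of their chromosome were Atp5h of the peripheral stalk (0.18 in line 66, where chromosome 11 had 0.32) and Ndufa4 (0.28 in line 72, where chromosome 6 had 0.15). The value of Ndufa4 rests on TPM, which for this gene depends on how reads were divided between its transcripts, as described below. Atp5b, Atp5d, Ndufa12, Ndufs7 and Uqcr11 lie on chromosome 10, so the falling ratio of Atp5b to Atp5a1 from line 66 to the others stands beside a chromosome-wide shift of 0.28 in line 66.

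Members elsewhere in the genome tended to be lowest in line 66. Of 65 such members, 51 (78.5%) were lowest there, against 53.5% of all genes off chromosomes 6, 10 and 11. Their medians in lines 66, 67 and 72 were -0.10, 0.07 and 0.03, against -0.02, 0.02 and 0.01 for all such genes. The shift in line 66 was -0.17 for complex III (6 of 6 lowest there), -0.13 for complex II (4 of 4), -0.13 for complex IV (11 of 12), -0.13 for complex V (10 of 13) and -0.02 for complex I (20 of 30). These shifts are small beside the range of single members, and a line has no replicate library, so no test was possible. Over all 78 members the medians of lines 66, 67 and 72 were -0.08, 0.06 and 0.02, and the last turned to -0.034 without line 66 and was 0.075 without line 67. The value of line 67 was 0.034 without line 66 and 0.096 without line 72. By count, 36 of the 78 members were highest in line 72 and 25 in line 67, against 45.7% and 26.2% of all genes. The median level of all 86 members was 7.79, 7.91 and 7.93 in lines 66, 67 and 72. Which line was highest thus depended on the measure.

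**Figure D3:**
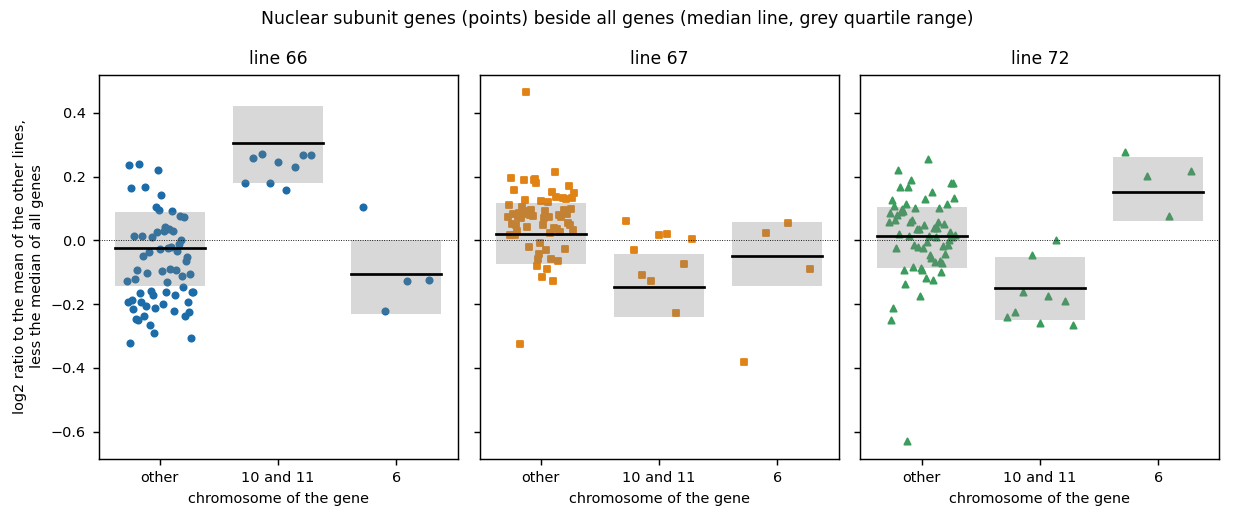
Relative log2 ratio of each member with at least 10 TPM, that is its level in a line against its average in the remaining lines after subtraction of the median of all genes, by chromosome group, with 1 panel per line. Black lines and grey bands give the median and quartiles of all genes of the same chromosomes. Members on chromosomes 10 and 11 lie at 0.16 to 0.27 in line 66, and the lowest point in line 72 is Cox6b2 at -0.63.

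Markers of differentiating muscle were also lowest in line 66, and most were highest in line 72. All 14 genes of that list were lowest in line 66 and 13 were highest in line 72 (13 of 13 and 12 of 13 of those with at least 10 TPM), with a median level of 7.41, 7.92 and 8.30 in lines 66, 67 and 72. Of all 8428 genes with at least 10 TPM, 47.7% were lowest in line 66 and 45.7% highest in line 72. The highest were the myosin light chain Mylpf (653, 816 and 1008 TPM) and the skeletal actin Acta1 (350, 486 and 588 TPM), and the lowest were the muscle creatine kinase Ckm (4.52, 6.88 and 9.30 TPM) and the caveolin Cav3 (11.4, 17.2 and 18.1 TPM). Col1a2, the fibroblast marker above 10 TPM, was also lowest in line 66 (7.47, 28.3 and 37.0 TPM), and it made up most of the sum of the 9 fibroblast markers in lines 67 and 72 (14.9, 36.6 and 41.6 TPM in lines 66, 67 and 72). The median level of that list was 0.39, 0.27 and 0.31, highest in line 66, and the other markers did not all share the order of Col1a2, with Thy1 at 3.51, 5.80 and 3.26 TPM and Twist2 at 2.97, 1.73 and 0.449 TPM, while Lum and Dpt had a count of 0. The part of differentiating cells in the levels of line 66 was not tested, and fewer cells of a type and less RNA per cell cannot be told apart in bulk libraries.

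By summed TPM, respiratory genes of the mitochondrial genome followed another order than the nuclear ones. Their 13 genes summed to 80067, 92342 and 69370 TPM, from mt-Atp6 with 15625, 18364 and 11836 TPM and mt-Co2 with 12512, 12030 and 9712 TPM down to mt-Nd5 with 1518, 2141 and 1876 TPM and mt-Nd6 with 287, 306 and 233 TPM. Of the 13, 11 were highest in line 67 and 11 lowest in line 72, where the nuclear sum was highest. Of all genes with at least 10 TPM, 26.2% were highest in line 67 and 19.6% lowest in line 72. By the median relative ratio, however, the nuclear members too were highest in line 67 (0.06, against 0.02 in line 72). The ratio of mitochondrial to nuclear TPM was 3.09, 3.34 and 2.46 in lines 66, 67 and 72. It was lowest in line 72 in each of complexes I, III, IV and V, and highest for complex IV (4.48 ± 0.54, SD, n = 3) and lowest for complex III (1.91 ± 0.29). The sums hold 3 mitochondrial and 18 nuclear genes for complex IV and 1 and 9 for complex III, so this ranking tells of gene numbers as well. The libraries were made from poly-A-enriched RNA, so these ratios hold for such transcripts alone.

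**Figure D4:**
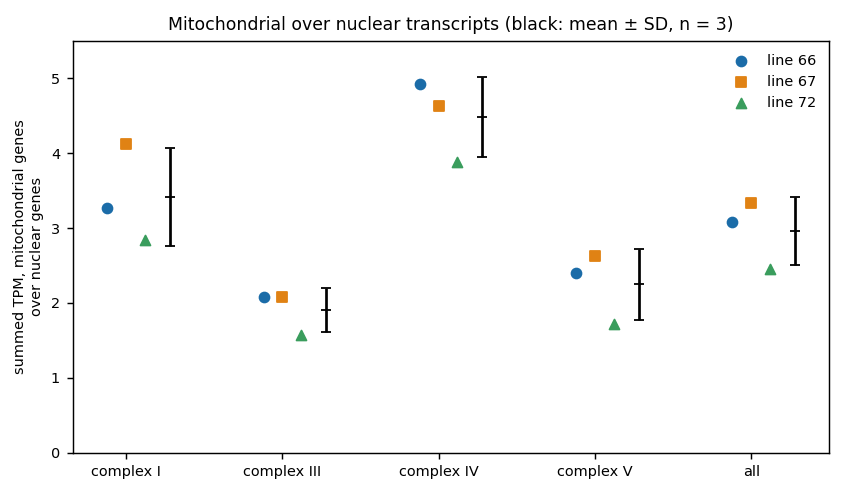
Summed TPM of the mitochondrially encoded genes of a complex over that of its nuclear genes, with 1 symbol per line and the mean ± SD over 3 lines in black. Line 72 is the lowest in every complex, and complex II is left out because it has no mitochondrial gene.

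Other nuclear genes of the pathway were read from fixed lists. The 52 assembly factors, which build the complexes but do not stay in them, had a median level of 4.78 ± 0.03, far below that of the subunits (7.88 ± 0.08, SD, n = 3). Of them, 46 had at least 10 TPM, and 0 of these 46 were more than 1.5-fold apart, against 9.79% of all genes. The highest were the copper chaperone Cox17 (177, 186 and 198 TPM) and Uqcc2 (155, 160 and 155 TPM), and the lowest were Pet117 (2.85, 0.393 and 40.1 estimated counts) and Sdhaf3 (2.64, 2.81 and 3.46 TPM).

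Among 14 carriers and channels, the phosphate carrier Slc25a3 (932, 783 and 808 TPM) and the ADP/ATP carrier Slc25a5 (631, 769 and 765 TPM) were the highest. Of the 12 above 3 counts in any line, the lowest were the testis ADP/ATP carrier Slc25a31 (4, 0 and 0 counts) and the uncoupling protein Ucp3 (0, 2 and 5 counts). The uncoupling protein Ucp1 of brown fat and Cyct, the testis form of cytochrome c, stayed at or under 3 counts. Of the 10 with at least 10 TPM, 1 was beyond 1.5-fold, the uncoupling protein Ucp2 at 1.80-fold, a share close to the 9.79% of all genes.

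Of 20 transcription factors and coactivators tied to respiratory genes, 11 had at least 10 TPM. Gabpa (81.9, 108 and 106 TPM) and the mitochondrial DNA factor Tfam (102, 91.3 and 97.8 TPM) were the highest, and Perm1 (4, 11 and 7 counts) and Epas1 (48.4, 24.0 and 30.1 counts) the lowest. Of these 11, 1 was beyond 1.5-fold, a share close to the 9.79% of all genes, namely Polrmt, the mitochondrial RNA polymerase (30.6, 41.2 and 21.4 TPM). The coactivator Ppargc1a, named after its values were seen, had 4.51, 9.96 and 8.73 TPM and was lowest in line 66.

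The transcript to which reads were assigned shaped the level of some members. Ndufa4 had 10075, 9748 and 10368 estimated counts, 1.07-fold apart as CPM, but 1.40-fold apart as TPM. In lines 66 and 72 its reads were divided between the transcripts Ndufa4-204 (452 bases; 5503 and 6327 counts) and Ndufa4-205 (610 bases; 4568 and 4028 counts). In line 67 Ndufa4-204 had 0 counts and Ndufa4-205 had 9072. A count on the shorter transcript is worth more TPM, and the low TPM of line 67 stands beside this difference in assignment. Ndufs3 (1.13-fold in TPM, 1.01-fold in CPM) and Cox5b (1.05-fold in TPM, 1.19-fold in CPM) were the other members with at least 10 TPM whose fold moved by over 0.15 on the log2 scale.

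**Figure D5:**
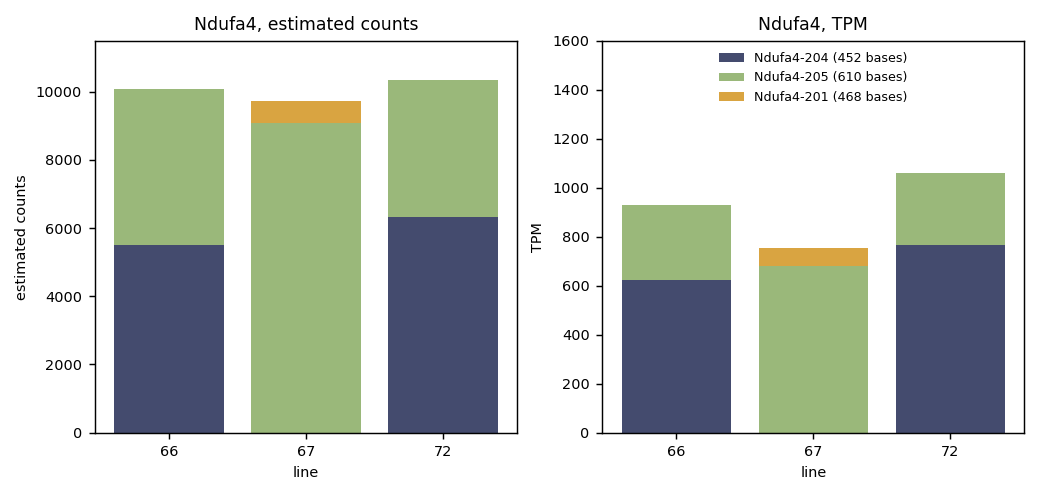
Estimated counts (left) and TPM (right) of Ndufa4 by line, stacked by transcript, with transcripts under 20 counts left out. The counts are level between lines, whereas the shorter transcript is at 0 in line 67 and the TPM is lowest there.

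Part of the members' signal was assigned to transcripts that are not annotated as coding. In lines 66, 67 and 72, protein_coding transcripts held 83.5%, 82.3% and 81.8% of the members' TPM and 90.2%, 89.6% and 89.1% of their counts. For 13 of 78 members (16.7%), the leading transcript was of another type, against 9.32% of all protein-coding genes with at least 10 TPM. Among them were Atp5j of the peripheral stalk, where a retained-intron transcript of 526 bases led and coding transcripts held 87.6 of 674 TPM, and Cox7b, where one of 526 bases led and coding transcripts held 108 of 602 TPM. In Ndufa5 coding transcripts held 10.2 of 254 TPM, and in Cyc1, the cytochrome of complex III, they held 64.4 of 318 TPM. In 12 of these 13 genes the leading coding transcript was the longer one. With coding transcripts alone, the median of complex IV was 7.91 ± 0.15, below that of complex III at 8.57 ± 0.12, and the redox subunits of complex III were at 6.62 ± 0.11. The levels of the 13 genes therefore depend on how reads were divided between transcripts.

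Most members could be told apart from other genes. Of the 78, 69 had over 90% of their 31-base words in no other listed gene, and the median was 99.5%. The lowest were Atp5o (58.5%, with 3 sharing genes), Ndufb6 (65.6%, shared with Smim27) and Ndufa13 (71.7%, shared with Tssk6). Cox4i1 shared 7.59% of its words with Emc8. Words were shared with annotated pseudogenes by 9 of the 78 members, where any shared word was enough. All counts of these pseudogenes came to 37.8% of the member's own for Ndufc1 and 37.5% for Ndufv3, both accessory subunits of complex I. For the other 7 members they came to at most 7.64%. Ndufc1 and Ndufv3 shared words with 1546 and 1010 genes in all, and 93.7% and 95.9% of their words were in no other listed gene. These counts therefore do not measure reads divided with a pseudogene. In 18 members a count lay more than 0.05 from a whole number, so some of their reads were divided with another gene.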

How the data were processed

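RNA of myoblasts purified by fluorescence-activated cell sorting was sequenced as poly-A-selected, stranded libraries, 1 for each of lines 66, 67 and 72. Per the submitters' processing notes, bcl2fastq 2.20, fastp 0.20 and kallisto 0.46.1 were used, with the mouse build GRCm39. The authors deposited, for each of 121798 transcripts, the estimated counts of kallisto, which need not be whole since reads shared by transcripts are divided, and the TPM, which kallisto derives from these counts and effective transcript lengths.

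Transcripts were matched by identifier to GENCODE M21, whose GRCm38 coordinates are given, and both units were summed per gene. The 1112 transcripts without a match held 0.493% to 0.535% of the counts. Totals were 66972426 to 73274315 estimated counts, and the limit for a count of 0 was set at 3 counts. Reads carry no molecular identifiers, so this limit covers counting error only. CPM was computed from the estimated counts.

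Levels were compared as log2(TPM + 1), with a minimum mean of 10 TPM where stated. Paralog pairs were tested by an exact two-sided sign-flip test. P-values measure only the spread between these libraries. The BCV was fitted with edgeR 4.0.16 (R 4.3.3) on estimated counts rounded to whole numbers. Values moderated across genes were not used, since on simulated data they leaned to the trend. DESeq2 1.42.0 gave alternative size factors. Other steps used Python 3.11.15 with pandas 2.3.3, numpy 2.4.6 and matplotlib 3.10.9. Promoter windows came from RefSeq (GRCm38.p6) and coding sequence from GENCODE M21 transcripts, and 31-base words of all listed transcripts served to find shared sequence.

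Members, lists, roles within complexes and the genes shown with sequence were chosen with earlier results of these data known. Named were all paralog pairs, the 2 highest and 2 lowest genes of each complex, members beyond 1.5-fold or at or under 3 counts, the 2 highest, the 2 lowest above 3 counts and any at or under 3 counts of the lists of assembly factors, carriers, transcription factors, mitochondrial genes and differentiated muscle (not of the lists of other cell markers), and the 2 members farthest from the shift of their chromosome. Any other gene was picked with its values in view. The alternatives were CPM, a pseudocount of 0.1, a minimum of 1 TPM, a 2-fold threshold, other scalings, protein-coding transcripts alone and leaving out each line.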

Additional observations from a re-analysis of the deposited data

How the results depend on the processing

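No paired analysis was possible because there is only 1 condition. Of 37 alternative values for the median level of the complexes, 24 stayed within 1 SD and 13 moved. With CPM, which leaves out the division by length, complexes I to V were at 5.91, 7.05, 6.87, 6.89 and 7.14. With protein-coding transcripts alone, complexes I, IV and V were at 7.21, 7.91 and 8.60. With members of at least 1 TPM, which leaves out the lowest genes, they were at 7.45, 8.85 and 9.001. With Ndufa4 counted in complex IV, complexes I and IV were at 7.39 and 8.81. Of 66 alternative values for paralog pairs, 64 kept their direction, and Cox7a2l less Cox7a2 reversed to 0.60 with CPM and to 0.083 with protein-coding transcripts alone. The number of members beyond 1.5-fold was 3 with a minimum of 1 TPM (19.7% of all genes) and 0 at 2-fold (2.47%), stayed at 1 with CPM, edgeR TMM and DESeq2 size factors, and was 0 to 1 when each line was left out (3.61% to 5.7% of all genes). The median ratio of members in line 72 was -0.034 to 0.075 when each other line was left out, reversed without line 66, that in line 67 was 0.034 to 0.096, and the other 20 values kept their direction. Counting Ndufa4 in complex IV, CPM for folds and line ratios, and the alternatives for roles were chosen after seeing the data. Of 50 such values for roles, 15 moved, 10 with CPM and 5 with protein-coding transcripts alone. CPM turned the order of roles within complexes III and V, and protein-coding transcripts alone that within complex V. Except where the construction of an alternative shows it, the cause was not tested. Depth limits the genes at or under 3 counts.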

Other observations

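A few genes tied to the complexes were not selected by their symbols. The ATP synthase subunit Usmg5 had 552, 656 and 694 TPM in lines 66, 67 and 72, and the acyl carrier protein Ndufab1, a subunit of complex I, had 486, 522 and 557 TPM, both lowest in line 66. The ATPase inhibitor Atpif1 had 511, 526 and 475 TPM. Ndufb1-ps, which the annotation does not list as protein-coding, had 147, 137 and 162 TPM. All 4 were picked with their values in view.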
